A study of Homo sapiens with 4 samples.

Results

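The 10 genes described here encode transcription factors that set up or hold the cell lineages of the mammary gland: TP63, SOX9, KLF5, GATA3, FOXA1, ESR1, PGR, ELF3, EHF and ELF5. They were chosen by name, by a rule that uses no measured value, although with earlier results of these data known, from the 27193 genes that the array design names. All 10 were on the array, with 13 of its 34127 probes and 31 of its 43118 spots. The study compared human mammary epithelial cells with and without depletion of PAK1, a kinase that acts downstream of the small GTPases Cdc42 and Rac, and asked which genes were differentially expressed.

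RNA was profiled from MCF10A.B2 cells, a subline of the immortalised breast epithelial line MCF10A that carries a form of Her2 (ErbB2) which a chemical crosslinker switches on. The groups were 2 samples of control cells, also labelled Pak1 wild type, and 2 samples of cells carrying an shRNA against Pak1. The cells of all 4 samples grew in DMEM/F12 with 5% horse serum. They were kept without serum for 3 h and then received the crosslinker AP1510 for 15 min, so activated Her2 was common to both groups. The series description calls the hairpin Tet inducible, and whether and for how long it was induced is not given in the sources used here. Only 1 hairpin was used, and the control is described as the wild type line and not as cells with a non-targeting hairpin, so effects of the hairpin vector and of PAK1 loss cannot be told apart. The labels do not say whether the samples of a group came from separate cultures, so the p-values below measure only the spread between these samples, which may be technical. The series description also speaks of tumor derived cells, while the labels and methods name the cell line, which was followed.

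PAK1 itself read 11.19 and 11.27 in control samples against 10.44 and 10.51 in samples with the hairpin, in normalized log2 intensity. The depleted cells thus held 59.2% of the control level (log2 fold change -0.76, SE 0.076, adjusted p = 0.000181 from limma, n = 2 per group). All 4 arrays lay on 1 slide, and 78.0% to 82.0% of the probes were well above background on each. The 8 basal epithelial markers checked (KRT5, KRT14, KRT17, ITGA6, ITGB4, CDH3, LAMB3 and TRIM29) were well above background on every array that measured them. Without LAMB3, whose brightest probe had no value on PAK1 shRNA array 2, the other 7 summed to 409038 to 457819 in normalized intensity in control and to 345428 to 350845 in PAK1 shRNA cells. With LAMB3 the sum was 533602 to 599345 in control and 653190 on PAK1 shRNA array 1, so the direction of this sum turns on that gene. Of 6 fibroblast markers, 3 were well above background on every array (COL1A1, DCN and LUM), and COL1A2 and PDGFRA were so on none. PDGFRB was so on 3 arrays and fell by 0.58 on the log2 scale (adjusted p = 0.00126 from limma). The sum of the list was 4115 to 4853 in control against 7928 to 8106 in PAK1 shRNA cells. DCN, the brightest of the list, read 11.98 and 11.74 in control against 12.76 and 12.70 in normalized log2 intensity. All 5 leukocyte markers passed the same low bar. CD14, which has no value on PAK1 shRNA array 2, was bright and rose 2.34-fold (14.22 and 14.16 against 15.42 in normalized log2 intensity, adjusted p = 0.000145 from limma), and the other 4 summed to 774 to 784 against 891 to 976. All 4 endothelial markers passed too, with sums of 957 to 1000 against 752 to 786 without KDR, which has no value on PAK1 shRNA array 1. Of 3 adipocyte markers only ADIPOQ passed on every array and LEP passed on none, with sums of 237 to 239 against 229 to 233. The part of these shifts in the results below was not tested.

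The mammary duct has an outer basal or myoepithelial layer and an inner luminal layer, and the luminal cells are either hormone-sensing or belong to the progenitor and milk-forming alveolar branch. TP63 holds the basal state and SOX9 marks stem and progenitor cells. GATA3, FOXA1 and the oestrogen and progesterone receptors ESR1 and PGR define hormone-sensing luminal cells, and ELF5, with its epithelial ETS relatives ELF3 and EHF, belongs to the luminal progenitor and secretory side. MCF10A is known as a basal-like line without oestrogen receptor activity.

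The sequences that the readings rest on are shown first for the factors whose probes need reading with care. A probe is a 60-base oligonucleotide, and a signal from it speaks only for transcripts that hold its bases. The first pair below are probes of ESR1 that lie in its coding sequence, and the capitals mark the start codon. The last is the only probe of TP63, which the design ties to 4 transcripts, so that the isoforms of the gene, with or without the N-terminal transactivation domain, cannot be told apart by it. Their positions in genome build hg19 are chr6:152129048-152129107, chr6:152265523-152265582 and chr3:189586433-189586492, all on the plus strand.
ESR1, first coding bases: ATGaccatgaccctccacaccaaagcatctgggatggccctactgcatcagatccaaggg
ESR1, downstream coding probe: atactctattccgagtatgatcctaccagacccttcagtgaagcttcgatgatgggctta
TP63: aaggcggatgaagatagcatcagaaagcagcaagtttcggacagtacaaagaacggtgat

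Promoter windows from RefSeq (build GRCh38.p14, the 250 bases before an annotated start) were read for 9 of the 10 factors, 23 windows in all, and none was read for SOX9. Printed are windows of the genes that fell in PAK1 shRNA cells, which hold or lack the core letters bound by the families of these factors. Capitals mark a match, searched on both strands. The ETS core was CCGGAAG. For GATA factors the letters searched were AGATAA. The forkhead core was written as TGTTTAC. The GATA3 window printed is chr10:8045083-8045332, before the most upstream start of the gene. The EHF window printed is chr11:34632316-34632565, before a start 11473 bases into the gene. The TP63 window is chr3:189631139-189631388, before a start 34643 bases into the gene. All are on the plus strand.
GATA3: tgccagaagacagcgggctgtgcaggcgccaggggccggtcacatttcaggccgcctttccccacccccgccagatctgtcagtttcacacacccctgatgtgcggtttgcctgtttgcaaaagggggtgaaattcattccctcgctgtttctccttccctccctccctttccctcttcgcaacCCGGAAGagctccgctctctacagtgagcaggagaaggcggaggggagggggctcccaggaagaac
EHF: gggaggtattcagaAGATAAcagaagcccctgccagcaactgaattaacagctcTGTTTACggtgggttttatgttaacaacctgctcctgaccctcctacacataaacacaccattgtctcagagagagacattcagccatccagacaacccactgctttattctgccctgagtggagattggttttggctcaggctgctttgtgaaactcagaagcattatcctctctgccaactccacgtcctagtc
TP63: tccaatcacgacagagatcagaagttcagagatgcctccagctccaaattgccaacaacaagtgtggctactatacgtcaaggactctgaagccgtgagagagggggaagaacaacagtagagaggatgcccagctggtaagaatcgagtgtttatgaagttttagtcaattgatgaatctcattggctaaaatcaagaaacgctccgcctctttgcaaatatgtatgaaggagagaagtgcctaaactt

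The ETS core lay 66 to 60 bases before the most upstream GATA3 start. This was the only one of the 23 windows that held it, against 8.52% of all 35116 windows searched. The other GATA3 windows, before starts 4521 to 15124 bases into the gene, held none of the motifs searched. The EHF window printed held a GATA core 236 to 231 bases and a forkhead core 196 to 190 bases before its start. Of all windows, 9.17% and 2.98% hold these letters. The other EHF window, before a start 3164 bases into the gene, held none of the motifs searched. The window of ELF5 also held the forkhead core, on the opposite strand 193 to 187 bases before the start, and the TP63 window, with 44% G and C, held none of the motifs searched. That was the only TP63 window read, so other starts of the gene were not searched. A KLF and Sp core (CCACGCCC, in 4.71% of all windows) was in no window of a member. A STAT palindrome (TTCNNNGAA, in 6.57% of all windows) was in 2 windows of ESR1. A match of letters is a description of the window and not a binding site.

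Of the 10 factors, 8 were tested and all of these were well above background on all 4 arrays, so none entered through 1 group alone. In PAK1 shRNA cells FOXA1, SOX9, ELF3 and KLF5 rose, EHF, TP63 and GATA3 fell, and ESR1 did not pass the test. PGR and ELF5 were not well above background on any array. Thus 7 of the 8 factors tested were called, beside 62.6% of all 21921 genes tested. The calls were 4 higher, beside 30.6% of all genes, and 3 lower, beside 32.0%. At least 2-fold changes were found for 5 of the 8, beside 17.9% of all genes. The median size of the change, without its sign, was 1.11 on the log2 scale for the 8 factors and 0.38 for all genes. Their median with its sign was 0.21, beside 0.017 for all genes, with rises and falls on both sides. The groups did not overlap for any of the 8 factors, but this was so for 82.1% of all genes.

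**Figure D1:**
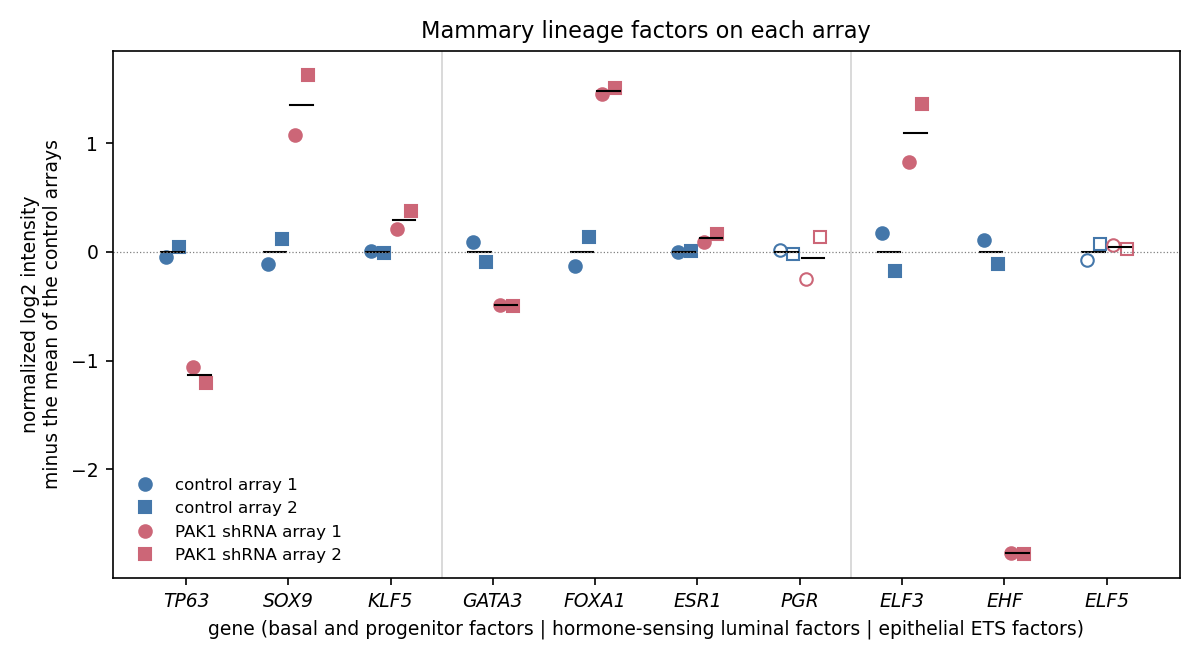
Normalized log2 intensity of the 10 factors on each array, less the mean of the control arrays; circles are array 1 and squares array 2 of each group, bars are group means, and open symbols mark probes that were not well above background. The drop of EHF and the rises of FOXA1 and SOX9 stand clear of the spread between arrays, while PGR and ELF5 carry no measured level.

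TP63 encodes p63, the factor that maintains basal epithelium. Its probe read 9.11 and 9.20 in control cells and 8.10 and 7.95 in PAK1 shRNA cells, in normalized log2 intensity. Both PAK1 shRNA arrays lay below both control arrays. The level in depleted cells was 45.7% of control, a 2.19-fold fall (log2 fold change -1.13, SE 0.086, adjusted p = 5.03e-05 from limma). In a population of cells, fewer cells of a type and less RNA per cell cannot be told apart, here and for each result that follows. A relative of TP63 was lower too. TP73, which encodes p73, read 8.73 and 8.81 in control and 7.19 and 7.25 in PAK1 shRNA cells, a fall of 2.93-fold (SE 0.075 on the log2 scale, adjusted p = 7.94e-06 from limma).

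SOX9, a factor of stem and progenitor cells, read 8.95 and 9.17 in control cells and 10.13 and 10.69 in PAK1 shRNA cells. Both depleted samples were higher than both controls, with a gap between the depleted samples themselves that was wider than between the controls. The rise was 2.55-fold (log2 fold change 1.35, SE 0.18, 95% interval 0.91 to 1.79, adjusted p = 0.000701 from limma). The probe lies at chr17:70121841-70121900 (hg19, plus strand). Relatives of SOX9, looked at here after their values were seen, went different ways. SOX8 rose by 0.71 on the log2 scale (SE 0.070, adjusted p = 0.000163 from limma). SOX4 and SOX10, the latter a neural crest factor also found in mammary progenitors, did not pass the test, with log2 fold changes of -0.21 and -0.17.

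KLF5, a zinc finger factor that favours epithelial proliferation, was bright on every array, at 12.25 and 12.23 in control and 12.45 and 12.62 in PAK1 shRNA cells. The groups did not overlap, but the difference was small. It rose 1.22-fold (log2 fold change 0.29, SE 0.085, 95% interval 0.086 to 0.49, adjusted p = 0.0227 from limma). This call was lost when control array 1 (adjusted p = 0.0609), control array 2 (0.0809) or PAK1 shRNA array 2 (0.138) was left out. KLF4, a relative that drives terminal differentiation of epithelia, moved far more. It read 7.20 and 7.17 in control and 10.58 and 10.97 in PAK1 shRNA cells, a 12.0-fold rise (SE 0.13 on the log2 scale, adjusted p = 2.61e-06 from limma), and had the highest fold change of the 21 family relatives tested. KLF6, named after its values were seen, rose by 0.79 on the log2 scale (SE 0.075, adjusted p = 0.000142 from limma).

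GATA3, needed for luminal differentiation, read 10.35 and 10.17 in control and 9.78 and 9.76 in PAK1 shRNA cells. The depleted samples were nearly equal and both lay below the controls. The level was 71.1% of control (log2 fold change -0.49, SE 0.087, 95% interval -0.70 to -0.28, adjusted p = 0.00248 from limma). The probe lies at chr10:8117072-8117131 (hg19, plus strand). TRPS1, an atypical GATA factor of breast epithelium named after its values were seen, had a log2 fold change of -0.02 and did not pass the test.

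FOXA1 is the pioneer factor that opens chromatin for the oestrogen receptor. It was measured on 10 spots per array, all of them well above background, and the spots of an array had an SD of 0.16 to 0.18 on the log2 scale. Their means were 7.97 and 8.24 in control cells and 9.56 and 9.61 in PAK1 shRNA cells. Both depleted samples lay above both controls, which differed from each other more than the depleted samples did. The rise was 2.78-fold (log2 fold change 1.48, SE 0.10, 95% interval 1.23 to 1.73, adjusted p = 3.59e-05 from limma). The probe lies at chr14:38059546-38059605 (hg19, minus strand). FOXA2, a relative better known from endoderm and named after its values were seen, fell by 0.50 on the log2 scale (SE 0.097, adjusted p = 0.00374 from limma). FOXA3 did not pass the test, with a log2 fold change of 0.18.

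ESR1, the oestrogen receptor, was read with the first coding probe printed above. It gave 7.89 and 7.91 in control and 7.99 and 8.07 in PAK1 shRNA cells. The groups lay apart by a small step only, and the log2 fold change of 0.13 (SE 0.073, 95% interval -0.048 to 0.31, adjusted p = 0.172 from limma) did not pass the test. The interval leaves out a change as large as that of FOXA1. The downstream coding probe was not well above background on any array, at raw intensities of 53.0 to 61.8. The remaining probe, at chr6:152423908-152423967 (hg19, plus strand), has 10 spots per array, of which 8 and 5 were well above background in control and 10 and 8 in PAK1 shRNA cells. This probe changed by 0.19 on the log2 scale (SE 0.074, adjusted p = 0.0544 from limma over 26301 probes), also short of the threshold.

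PGR, the progesterone receptor and a target of the oestrogen receptor, had probes at chr11:100912709-100912768 and chr11:100900858-100900917 (hg19, minus strand). Neither was well above background on any array, with raw intensities of 44.2 to 65.9. No fold change is given for it.

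EHF, an epithelial ETS factor, changed most of the 8 factors tested. The probe, at chr11:34681911-34681970 (hg19, plus strand), read 10.76 and 10.54 in control and 7.89 and 7.87 in PAK1 shRNA cells. Before normalization the spot had intensities of 2337 and 1579 in control and 199 and 191 in PAK1 shRNA cells, so that the depleted samples were still well above background. The level was 14.7% of control, a 6.82-fold fall (log2 fold change -2.77, SE 0.092, 95% interval -2.99 to -2.55, adjusted p = 1.94e-06 from limma). Among the 7010 genes called lower, 189 fell further.

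ELF3, a closely related ETS factor induced in inflamed and differentiating epithelium, moved the opposite way. It read 9.57 and 9.23 in control and 10.23 and 10.76 in PAK1 shRNA cells. The samples of each group differed more from each other than for EHF, but the groups did not overlap. The rise was 2.13-fold (log2 fold change 1.09, SE 0.19, 95% interval 0.64 to 1.55, adjusted p = 0.00235 from limma). The probe lies at chr1:201984429-201984488 (hg19, plus strand). ELF5, the alveolar master regulator, had raw intensities of 51.0, 48.8, 52.0 and 49.8 and no measured level. Of the wider ETS family, ELF1 rose 2.57-fold (SE 0.072 on the log2 scale, adjusted p = 1.16e-05 from limma). Named after their values were seen, ELF4 and SPDEF, the latter a luminal and secretory factor, fell by 0.35 and 0.33 on the log2 scale (adjusted p = 0.0205 and 0.0201 from limma). The ELF4 call was lost without control array 1 (adjusted p = 0.0946) or PAK1 shRNA array 1 (0.112), and the SPDEF call without control array 2 (0.0951) or PAK1 shRNA array 2 (0.12). ELF2 did not pass the test, with a log2 fold change of -0.03.

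**Figure D2:**
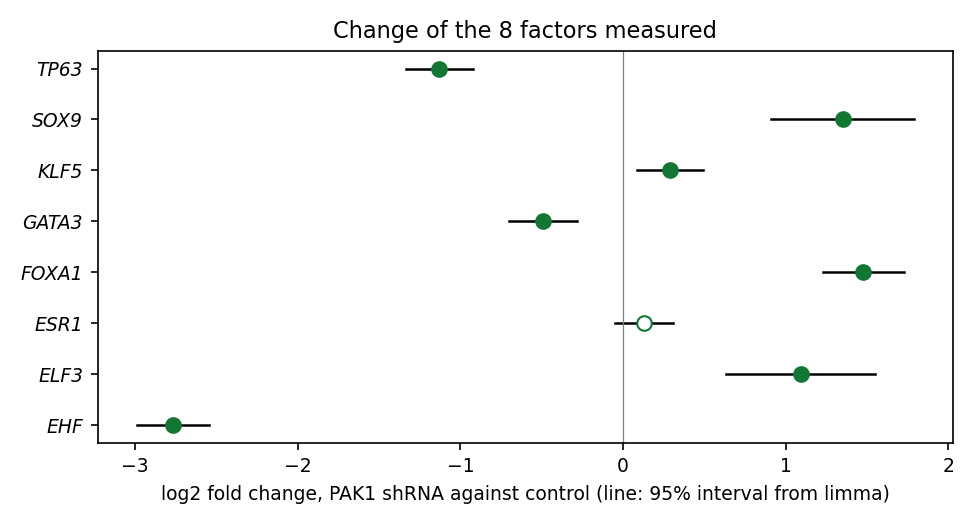
Log2 fold change of the 8 factors tested, PAK1 shRNA against control, with 95% intervals from limma; the open symbol did not pass the test. EHF, TP63 and GATA3 lie left of 0, and KLF5, ELF3, SOX9 and FOXA1 right of it, with ESR1 crossing it.

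For arrays the methods name limma, as used here, and the methods' t-test is the unpaired test of their general statistics section. Run on the same values, it gave a P under 0.05 to 5 of the 8 factors before adjustment and to 3 after it. EHF, TP63 and FOXA1 were called by it after adjustment, and SOX9 (adjusted p = 0.0877), GATA3 (0.0686), ELF3 (0.125) and KLF5 (0.126) were not. Exact permutation of 2 against 2 samples cannot give a p below 0.333. ESR1 was called higher under the processed signal scaled to its 75th percentile (log2 fold change 0.33, adjusted p = 0.0279 from limma) and under median centring (0.23, adjusted p = 0.0453), which move the median of all genes to 0.11 and 0.14. Under the same settings KLF5 was no longer called (adjusted p = 0.0528 and 0.0784). No factor changed direction under any of the 18 alternatives, and the plot of all settings shows their range.

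**Figure D3:**
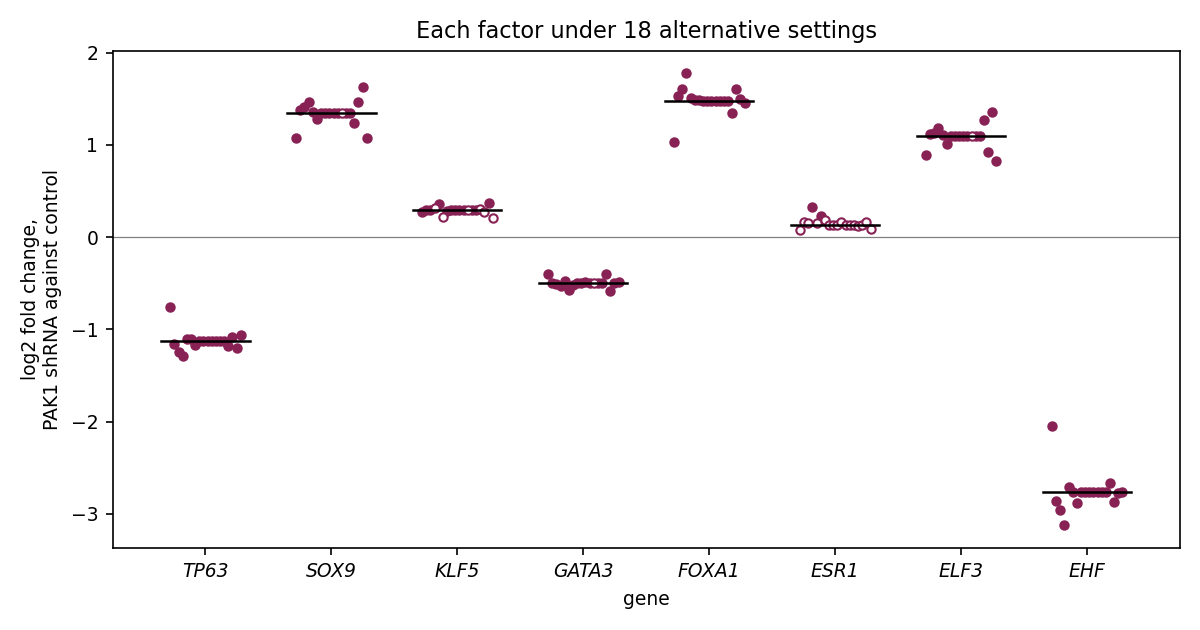
Log2 fold change of each factor tested, PAK1 shRNA against control, under the reported setting (black bar) and 18 alternative settings (points). EHF ranged from -3.12 to -2.05 and FOXA1 from 1.03 to 1.78, while ESR1 and KLF5 stayed near 0.

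Among 25 other regulators of mammary epithelium, 23 were tested, of which 8 rose, 12 fell and 3 did not pass the test, beside 30.6% of all genes higher and 32.0% lower. Their median log2 fold change was -0.23, and 0.022 without control array 2. XBP1, a factor of secretory cells and the unfolded protein response, rose 5.81-fold (SE 0.15 on the log2 scale, adjusted p = 1.82e-05 from limma). TBX3, a luminal T-box factor, rose 2.85-fold (SE 0.071, adjusted p = 6.91e-06 from limma). MYB, a progenitor factor, fell 5.81-fold (SE 0.096, adjusted p = 3.06e-06 from limma) and BCL11A, a factor of mammary progenitors, fell 4.29-fold (SE 0.072, adjusted p = 2.17e-06 from limma). After their values were seen, SNAI2, a repressor that keeps cells basal, was found to fall by 1.47 on the log2 scale (SE 0.090, adjusted p = 2.08e-05 from limma). The mediators of prolactin signalling, also named after their values were seen, moved apart, STAT5A rising 2.70-fold and STAT5B falling 2.15-fold (adjusted p = 9.12e-06 and 2.45e-05 from limma).

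The 24 basal genes linked to p63 did not move as a group. All were tested, 9 rose, 9 fell and 6 did not pass the test, beside 62.6% of all genes called, with a median log2 fold change of -0.02 that ranged from -0.12 to 0.16 over the settings. The falling members named by the rule were JAG2, a Notch ligand, by 3.60-fold (SE 0.11 on the log2 scale, adjusted p = 1.97e-05 from limma), and KRT15, a basal keratin. KRT15 was saturated on both control arrays, so its fall of 3.55-fold (adjusted p = 0.000145 from limma) is approximate. Its log2 fold change ranged from -2.12 to -1.41 over the alternatives, and in 1 of 17 it was no longer past the threshold. The rising members named were COL17A1, a hemidesmosome collagen, by 2.53-fold, and ITGA3, a laminin receptor, by 2.49-fold (adjusted p = 4.39e-05 and 1.77e-05 from limma). Outside the rule, after values were seen, the keratins of basal cells were lower, with log2 fold changes of -1.20 for KRT5, -0.98 for KRT14 and -0.75 for KRT17 (adjusted p = 0.000161, 8.21e-05 and 0.000244 from limma). Of 9 myoepithelial contractile genes, 8 were tested, 6 rose, 1 fell and 1 did not pass the test, beside 30.6% of all genes higher and 32.0% lower, with a median of 0.42. ACTA2, smooth muscle actin, rose 1.97-fold and TPM2, a tropomyosin, 1.54-fold, while OXTR, the oxytocin receptor, fell 1.86-fold (adjusted p = 4.48e-05, 0.000428 and 0.000196 from limma). Fibroblasts also express ACTA2 and TPM2. The summed fibroblast markers given above were higher in the same samples, although PDGFRB fell. COL1A2 and PDGFRA were not well above background on any array. The part of fibroblasts in this result was not tested.

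Of 15 luminal epithelial genes, 13 were tested, 7 rose, 1 fell and 5 did not pass the test. The genes that rose include PRLR, named after its value was seen. It was well above background on only 3 of the 4 arrays and so entered through 1 group alone. All genes gave 62.6% called, 30.6% higher and 32.0% lower, so the share of luminal genes called was near that of all genes. The luminal genes had a median log2 fold change of 0.47 that ranged from 0.14 to 0.74 over the settings. AGR2, a disulfide isomerase of secretory cells, read 10.06 and 9.73 in control and 11.37 and 11.26 in PAK1 shRNA cells and rose 2.68-fold (SE 0.12 on the log2 scale, adjusted p = 8.07e-05 from limma). CLDN4, a tight junction claudin, rose 2.64-fold (SE 0.093, adjusted p = 2.84e-05 from limma). MUC1, an apical mucin named after its value was seen, rose 2.58-fold (SE 0.10, adjusted p = 5.37e-05 from limma). The member that fell was KRT19, a luminal keratin, by 2.02-fold (SE 0.075, adjusted p = 4.42e-05 from limma). Those that did not pass the test, also named after their values were seen, were KRT7, KRT8, EPCAM, CD24 and CLDN3. Their log2 fold changes were -0.06, -0.12, -0.09, 0.11 and 0.14.

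Only 5 of 10 luminal progenitor and alveolar genes were tested, since KIT, PROM1 and the milk protein genes CSN2, CSN3 and LALBA were not well above background on both arrays of a group. Of the 5, 3 rose and 2 fell, beside 30.6% of all genes higher and 32.0% lower. The genes that rose include PIGR, named after its value was seen. It was well above background on only 2 of the 4 arrays and so entered through 1 group alone. PIGR was dim, at 6.33 and 6.36 in control and 6.91 and 7.10 in PAK1 shRNA cells. SLPI, a secreted protease inhibitor, rose 2.70-fold and LCN2, an iron-binding lipocalin, 1.62-fold (adjusted p = 1.49e-05 and 0.024 from limma). The LCN2 call was lost without control array 2 or PAK1 shRNA array 2. ALDH1A3, a retinal-oxidising enzyme of luminal progenitors, fell 3.15-fold and LTF, lactoferrin, 1.26-fold (adjusted p = 1.16e-05 and 0.0186 from limma). The LTF call was lost without control array 1 or PAK1 shRNA array 1.

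Of 17 oestrogen receptor target genes, 16 were tested, 8 rose, 3 fell and 5 did not pass the test, with a median of 0.25, and the share called was near the 62.6% of all genes. NRIP1, a corepressor of nuclear receptors, read 10.50 and 10.53 in control and 12.88 and 13.01 in PAK1 shRNA cells and rose 5.39-fold (SE 0.079 on the log2 scale, adjusted p = 1.82e-06 from limma). STC2, a secreted glycoprotein, rose 1.68-fold and CA12, a carbonic anhydrase, fell 1.72-fold (adjusted p = 0.000281 and 2e-04 from limma). The other targets that fell, named after their values were seen, were SLC9A3R1 and BCL2, each lacking a value on a control array. Their log2 fold changes were -1.83 and -0.71. After its value was seen, GREB1, a cofactor of the oestrogen receptor, was found to rise 1.54-fold (log2 fold change 0.62, SE 0.097, adjusted p = 0.00144 from limma). Its log2 fold change was 0.32 as a mean over its probes, and the methods' t-test did not call it (adjusted p = 0.0735). Among the 26 family relatives of the factors, 21 were tested, 6 rose, 6 fell and 9 did not pass the test, beside 62.6% of all genes called, with a median of -0.03 that ranged from -0.17 to 0.059 over the settings. The relatives that fell include NR3C2, named after its value was seen, which was well above background on only 3 of the 4 arrays. Those not tested included GATA1, GATA2, GATA5 and ESR2, which were not well above background on both arrays of a group.

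**Figure D4:**
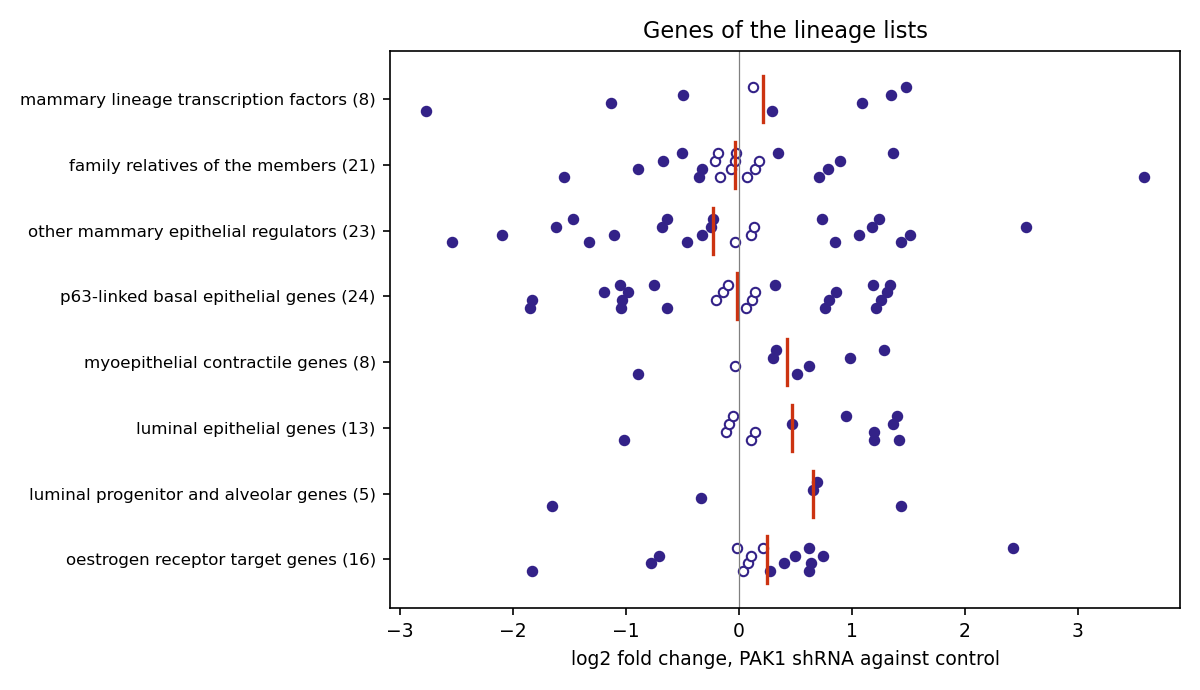
Log2 fold change of every tested gene in the lineage factors and the 7 other lists, PAK1 shRNA against control, with the number tested in brackets. Genes of the p63-linked list spread to both sides of 0, and most luminal and contractile genes lie to the right of it.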

How the data were processed

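Per the labels, 4 one-colour Agilent arrays (Cy3) were analysed. The authors deposited spot intensities straight from Agilent Feature Extraction 9.5.3.1 (9.5 in the submitters' processing notes), not normalized between arrays, and a table of normalized log2 values, used as an alternative. That table's scale and direction were found from the arrays (correlation 0.9995 to 0.9996 with the values used here, column medians 9.40 to 9.42); whether its spots were filtered stays unknown. Coordinates of probes are those of the scanner files (hg19).

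Mean intensities were corrected with normexp (offset 50) in limma 3.58.1 (R 4.3.3). The fit left out spots of flagged background, because with all spots normexp estimated a background mean of -666 and -740 in control samples but -10.7 and -10.2 in hairpin samples, and -9.19, -12.1, -10.4 and -9.78 without them. Control and flagged spots were dropped, arrays quantile normalized and spots of a probe averaged. Probes had to be well above background (over 0.5 of their spots) on both arrays of at least 1 group, and the probe of highest mean stood for its gene, whatever its transcript. A gene needed a value in each group, and 889 of the 21921 genes tested had a value on under 4 arrays. Genes were tested with lmFit and eBayes, with Benjamini-Hochberg adjustment over all genes and a threshold of 0.05, without a replicate block, since the replicate numbers did not pair the samples.

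The members and lists were chosen with earlier results of these data known. Named were all members, PAK1 and, from each list, up to 2 of the highest and 2 of the lowest log2 fold changes among called genes well above background on all arrays; other names are said to be chosen later. Some genes of the lists and of this rule enter the counts but are not reported here. On simulated data for this comparison (21921 genes, 200 changed), limma recovered 99% of log2 changes of 1 and 85% of log2 changes of 0.5, and called 22 unchanged genes. In the measured data 62.6% of genes were called, a far larger share than was changed in the simulation, so these rates need not hold there. The number of arrays limits the precision. Alternatives covered background, normalization, filter, flags, probe rule, test and each array left out.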

Additional observations from a re-analysis of the deposited data

How the results depend on the processing

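EHF, TP63 and FOXA1 kept direction and call in all 18 alternatives. None of the 34 genes named by rule and the 23 checked outside it reversed. Other named genes were not checked under the alternatives. Over the 34 genes named by rule, 590 of 611 values kept direction and side of the threshold, 19 were no longer past it and 2 (both ESR1) newly past it. Over the 23 genes checked outside the rule, 390 of 411 kept theirs and 21 were no longer past it. With normexp fitted on all spots the log2 fold change was -0.95 for TP73, -0.51 for OXTR, -0.63 for KRT19, 0.84 for STAT5A and -0.28 for FOXA2, and the mean over probes gave -1.36 for BCL11A. All 6706 higher and 7010 lower genes became 4141 and 4520 with the unpaired t-test, and 1929 and 1995 when a 2-fold change was also asked for. With 1 array left out they ranged from 5619 to 6265 and from 5960 to 6618. A fit with a lone array assumes that it varies like the other group. The 4 lineage factors called higher became 1 with the t-test and 3 to 4 with 1 array left out, where the 3 called lower stayed 3. With the replicate number as a block (correlation of same-numbered deviations 0.0077 over 26301 probes), 6905 genes were higher and 7102 lower. The slide could not be a block, since there was 1.

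Median log2 fold changes of the lists moved more. The processed signal at its 75th percentile gave 0.33 for the lineage factors, -0.13 for other regulators, 0.079 for p63-linked genes, 0.74 for luminal genes, 1.09 for luminal progenitor genes and 0.43 for oestrogen targets. Cyclic loess gave -0.049 for regulators, 0.16 for p63-linked, 0.50 for contractile and 0.65 for luminal genes. Median centring gave 0.059 for family relatives, -0.16 for regulators, 0.072 for p63-linked and 0.80 for luminal progenitor genes. No filter on dim probes gave 0.087 for the lineage factors, -0.15 for regulators, 0.33 for contractile, 0.14 for luminal and 0.011 for luminal progenitor genes. Asking for signal well above background on all 4 arrays gave -0.12 for p63-linked, 0.51 for contractile, 0.24 for luminal and 0.18 for luminal progenitor genes and 0.34 for oestrogen targets. The mean over probes gave -0.037 for regulators, 0.35 for contractile and 0.34 for luminal genes. Flagged spots kept gave -0.17 for family relatives, and the authors' values 0.12 for p63-linked and 0.77 for luminal progenitor genes. The latter list also read 0.34 with normexp fitted on all spots, 0.76 without background correction and 0.81 with offset 16. With 1 array left out, regulators ranged from -0.26 to 0.022, contractile genes from 0.39 to 0.57 and luminal progenitor genes from 0.19 to 0.75. The cause was not tested. PGR and ELF5 lay at background, so a change in them could not be measured.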
